A study of Mus musculus with 28 samples.

Results

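S100a1, Padi2, Ano1, Myl6b, Actn3 and Ndrg4 are 6 mouse genes whose transcripts were abundant in Sertoli cells sorted at stages IV-VI and VII-VIII of the seminiferous cycle and scarce at stages XI-XII. They are 6 of the 43280 gene rows in the count tables. They were chosen by symbol for high levels in the groups of stages IV-VI and VII-VIII and a low level in the group of stages XI-XII, so differences among those 3 groups are given here as a description, with no test. The rule of choice did not name the levels at stages I-III and IX-X or those in testes of NANOS2 KO mice. Nor did it name the genes related to the 6 in sequence or beside them in the genome. The 6 genes were, however, chosen with earlier results of these data known, so these parts may not be independent of the choice.

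The sorted cells came from mice heterozygous for RFP, a red fluorescent reporter, and positive for Amh-Cre, a recombinase driven by the promoter of anti-Müllerian hormone, which Sertoli cells use. Their 10 libraries form 5 groups of 2: A for stages XI-XII, B for stages I-III, C for stages IV-VI, D for stages VII-VIII and E for stages IX-X. The strain label is C57BL/6 x 129s4/SvJae for 9 of them and a C57BL/6 x Amh-Cre background for group A replicate 1. A further 18 libraries were made from the whole testis of NANOS2 KO animals (CD1 background), whose tubules keep Sertoli cells without germ cells, 2 for each day from 42 to 50 after retinoic acid. All animals, in every group, had received WIN 18,446, a blocker of retinoic acid synthesis, for 7 days and then an injection of retinoic acid, which sets the tubules to a common stage, and sorted cells were taken within the same 42 to 50 days. The labels place each sorted library in the stages most enriched, so neighbouring stages can be present in a group, and they do not say whether replicates are separate animals, so that the spread behind every p-value may be technical.

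Sertoli cells are the somatic cells that enclose germ cells in the seminiferous tubule, and their transcription changes with the stage of the germ cells around them. Of the genes, 3 are tied to calcium. S100a1 encodes a small calcium-binding protein best known from heart muscle, Padi2 a calcium-dependent enzyme that turns arginine in proteins into citrulline, and Ano1 a chloride channel opened by calcium. Myl6b, an essential light chain of myosin, and Actn3, an actin cross-linker known from the Z line of fast muscle fibres, belong to the contractile cytoskeleton. Ndrg4 belongs to a family of cytoplasmic proteins with a hydrolase-like fold and is best known from heart and brain.

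The genes were chosen for a like profile across the stages, and the DNA around their start sites is shown as a description. RefSeq windows of the GRCm38.p6 build, from 250 bases before to 50 bases after a start site, were found for 5 of the 6 genes, 8 windows in all, 4 of them for Ndrg4. Those printed are chr3:90514281-90514580 (minus strand) for S100a1, chr4:140906110-140906409 (plus strand) for Padi2, chr7:144738524-144738823 (minus strand) for Ano1, chr10:128498636-128498935 (minus strand) for Myl6b and chr8:95677513-95677812 (plus strand) for Ndrg4. Each reads 5′ to 3′ on the strand of the gene. Capitals mark GGGCGG, the GC box bound by Sp factors, on either strand (CCGCCC on the opposite one), and in Ndrg4 also AGGTCA, a core of nuclear receptor sites, and CACGTG, an E box.
S100a1: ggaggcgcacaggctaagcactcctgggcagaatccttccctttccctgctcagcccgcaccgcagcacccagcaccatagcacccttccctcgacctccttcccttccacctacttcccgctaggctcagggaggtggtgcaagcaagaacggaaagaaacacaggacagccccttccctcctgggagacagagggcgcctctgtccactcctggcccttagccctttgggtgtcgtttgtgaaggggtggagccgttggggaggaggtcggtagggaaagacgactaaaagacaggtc
Padi2: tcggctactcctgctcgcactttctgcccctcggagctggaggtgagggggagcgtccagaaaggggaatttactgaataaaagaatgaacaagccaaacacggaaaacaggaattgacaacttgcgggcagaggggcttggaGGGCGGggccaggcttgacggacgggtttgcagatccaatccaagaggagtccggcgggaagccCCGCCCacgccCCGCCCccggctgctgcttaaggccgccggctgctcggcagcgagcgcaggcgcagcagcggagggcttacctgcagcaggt
Ano1: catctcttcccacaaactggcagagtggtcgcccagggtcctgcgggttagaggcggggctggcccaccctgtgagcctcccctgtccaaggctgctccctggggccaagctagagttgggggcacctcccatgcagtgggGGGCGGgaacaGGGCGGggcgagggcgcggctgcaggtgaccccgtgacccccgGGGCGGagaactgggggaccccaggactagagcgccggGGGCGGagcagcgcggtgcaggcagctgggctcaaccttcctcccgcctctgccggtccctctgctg
Myl6b: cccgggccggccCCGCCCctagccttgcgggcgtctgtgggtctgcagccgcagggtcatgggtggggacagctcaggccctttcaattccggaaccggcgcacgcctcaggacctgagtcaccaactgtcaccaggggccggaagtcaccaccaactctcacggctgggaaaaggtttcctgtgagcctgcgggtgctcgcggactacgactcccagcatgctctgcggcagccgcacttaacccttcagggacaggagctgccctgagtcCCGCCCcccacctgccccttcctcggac
Ndrg4: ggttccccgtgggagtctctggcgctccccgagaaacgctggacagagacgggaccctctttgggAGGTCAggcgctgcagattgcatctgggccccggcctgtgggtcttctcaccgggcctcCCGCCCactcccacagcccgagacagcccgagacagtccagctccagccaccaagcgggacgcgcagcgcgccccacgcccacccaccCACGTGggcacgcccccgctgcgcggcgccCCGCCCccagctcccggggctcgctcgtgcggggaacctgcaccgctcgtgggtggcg

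On both strands, GGGCGG was found in 5 of the 8 windows, of 4 of the 5 genes (Padi2, Ano1, Myl6b and Ndrg4, not S100a1), against 35.7% of all 32851 windows of this length. In all, 4 matches lay in the Ano1 window, at 109, 98, 55 and 17 bases before the start site. AGGTCA and CACGTG were each found in the printed Ndrg4 window, 185 and 38 bases before the start, and are held by 16.3% and 7.15% of all windows. TATAAA, the TATA box, stood 30 bases before the start in another window of Ndrg4, and 13.6% of all windows hold it. AGAACA, part of the androgen receptor element, was not found in the windows of these 5 genes and is held by 19% of all windows. TGACGTCA, AGATAA and AACAAT, the core letters of CREB, GATA and SOX sites, were not found either, against 1.79%, 11.2% and 10.7% of all windows. No match overlapped another. GC content was 61.0% in the S100a1 window, 63.3% for Padi2, 67.3% for Myl6b, 71.7% for Ano1 and 73.7% in the printed window of Ndrg4. All were above the median of 52.7% over all windows. The part of GC content in the GGGCGG matches was not tested.

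Each sorted library held 1901700 to 5279700 counts and each knockout library 1336700 to 4370100. Levels are given as CPM, which corrects counts for library size and is scaled here within each set of libraries. Nanos2 had 2 counts over the 10 sorted libraries and 0 in the 18 of the knockout, where 0 counts allow up to 0.686 to 2.24 CPM, so it does not check the labels. Sertoli markers were present throughout: 25 genes such as Sox9, Amhr2 and Clu made up 1.19 to 1.84% of a sorted library and 1.97 to 2.30% of a knockout library. By group their share was 1.19 to 1.39% in A, 1.26 to 1.27% in B, 1.22 to 1.84% in C, 1.76 to 1.82% in D and 1.35 to 1.62% in E. The part of this share in the stage results was not tested. Transcripts of elongating spermatids were present in sorted libraries too. That list of 15 genes took 1.61 to 2.17% of counts in A, 1.75 to 2.06% in B, 1.11 to 1.55% in C, 0.407 to 0.565% in D and 1.32 to 1.66% in E, and 9 of the 15 were called lower in C and D than in A by edgeR (adjusted p under 0.05), against 5.65% of all genes. It took 0.0154 to 0.0224% in the knockout. Of 13 round spermatid genes, 4 were called higher in C and D than in A, against 4.97% of all genes. Of the other cell types, macrophage genes had 2 of 3 tested lower (0.0346 to 0.0403% of counts in A, 0.0148 to 0.0265% in C and D) and endothelial genes 2 of 4 higher (0.00109 to 0.00169% in A, 0.00243 to 0.00410% in C and D). Their part in the stage results was not tested.

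S100a1 stood at 4.11 and 2.44 CPM in A (21 and 12 reads), 20.3 and 23.0 CPM in B, 129 and 224 CPM in C, 139 and 172 CPM in D, and 20.7 and 16.7 CPM in E. The libraries of C and D lay far above all others, those of A below all others, and those of B and E beside each other. Group means were 3.27 CPM ± 1.18 in A, 21.7 ± 1.90 in B, 176 ± 67.0 in C, 156 ± 23.4 in D and 18.7 ± 2.81 in E (SD, n = 2 each). The highest mean was 53.8 times the lowest.

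Padi2 was the rarest of the 6 in A, with 1.17 and 0.815 CPM (6 and 4 reads). It reached 6.42 and 19.8 CPM in B, 43.9 and 78.4 CPM in C, 49.0 and 36.1 CPM in D, and 5.86 and 2.72 CPM in E. The libraries of C and D overlapped, and those of B lay above those of E. Means were 0.994 CPM ± 0.253 in A, 13.1 ± 9.45 in B, 61.1 ± 24.4 in C, 42.6 ± 9.12 in D and 4.29 ± 2.22 in E (SD, n = 2 each), a span of 61.5 times that rests on the 10 reads in A.

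Ano1 stood at 5.28 and 5.29 CPM in A, 14.4 and 33.4 CPM in B, 67.4 and 201 CPM in C, 372 and 219.8 CPM in D, and 56.1 and 83.9 CPM in E. Both libraries of D were above both of C, and those of E above those of B. The ranges of C and E overlapped, because C replicate 1 lay below E replicate 2. Means were 5.29 CPM ± 0.0112 in A, 23.9 ± 13.4 in B, 134 ± 94.8 in C, 296 ± 108 in D and 70.0 ± 19.7 in E (SD, n = 2 each).

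Myl6b had 14.1 and 29.9 CPM in A, 87.8 and 147 CPM in B, 422 and 592 CPM in C, 287 and 375 CPM in D, and 41.2 and 26.4 CPM in E. Here C lay above D with no overlap, B was the third level, and A and E overlapped. Means were 22.0 CPM ± 11.2 in A, 117 ± 41.8 in B, 507 ± 120.4 in C, 331 ± 62.5 in D and 33.8 ± 10.5 in E (SD, n = 2 each).

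Actn3 had 15.6 and 12.6 CPM in A, 13.4 and 31.8 CPM in B, 138 and 499.8 CPM in C, 553 and 701 CPM in D, and 128 and 126 CPM in E. A and B overlapped, both libraries of D were the highest, and C replicate 1 lay just above the level of E. Means were 14.1 CPM ± 2.13 in A, 22.6 ± 13 in B, 319 ± 256 in C, 627 ± 105 in D and 127 ± 1.32 in E (SD, n = 2 each).

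Ndrg4 had 13.7 and 17.9 CPM in A, 47.6 and 85.3 CPM in B, 291 and 417 CPM in C, 338 and 397 CPM in D, and 29.7 and 29.3 CPM in E. C and D overlapped, and B, E and A followed in that order without overlap. Means were 15.8 CPM ± 2.99 in A, 66.5 ± 26.6 in B, 354 ± 89.3 in C, 368 ± 42.3 in D and 29.5 ± 0.292 in E (SD, n = 2 each).

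**Figure D1:**
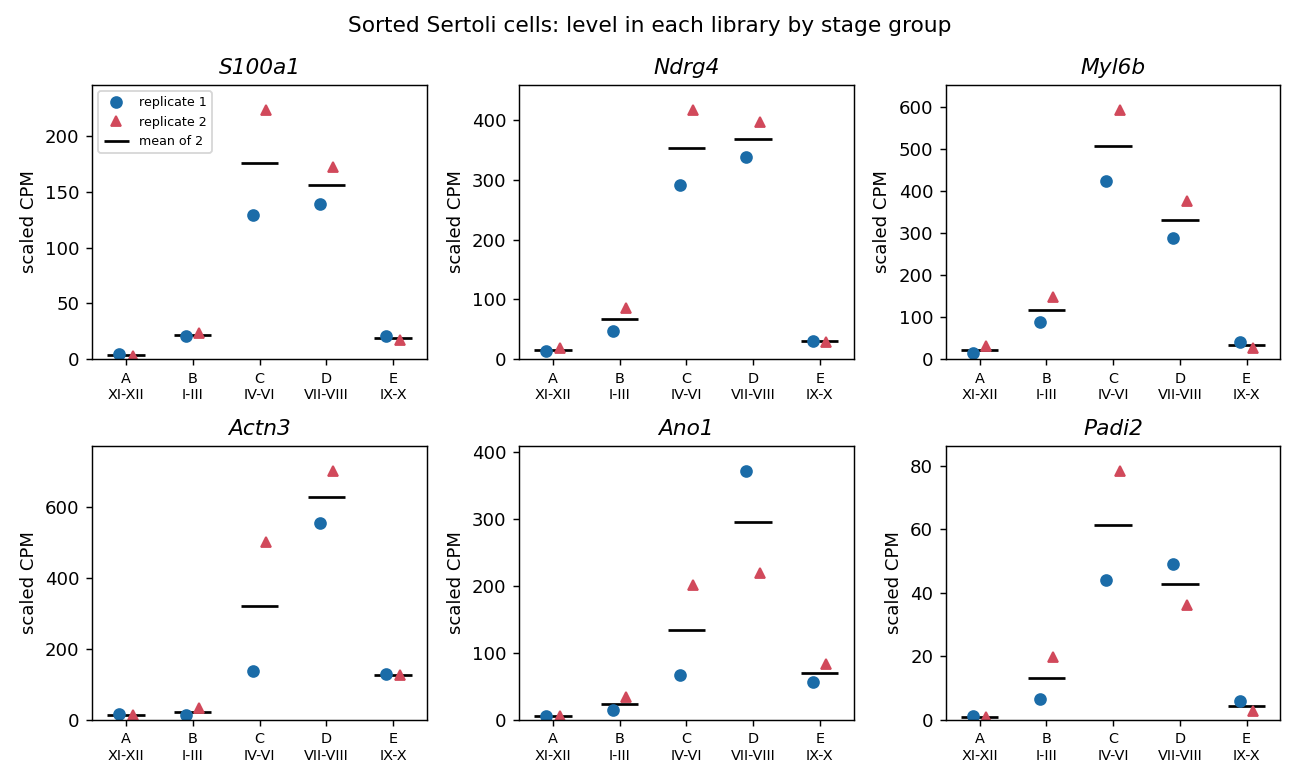
Scaled CPM (linear axes from 0) of the 6 genes in the 10 sorted libraries by stage group, 1 panel a gene; points are libraries and bars the means of the 2 libraries of a group. Groups C and D are the highest in each panel, D stands above C for Actn3 and Ano1, and the libraries of C lie far apart for Actn3 (138 and 499.8 CPM).

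As log2 differences between the mean of C and D and group A, the values on which the genes were chosen ran from 4.22 (SE 0.41) for Myl6b to 5.64 (SE 0.40) for S100a1. The others were 4.51 (SE 0.35) for Ndrg4, 4.98 (SE 0.55) for Actn3, 5.23 (SE 0.57) for Ano1 and 5.63 (SE 0.62) for Padi2. Over all genes, 4.97% were called higher in C and D than in A (712 of 14331 tested, edgeR adjusted p under 0.05; 409 without D replicate 2). With a library left out, Myl6b ran from 3.77 (without A replicate 1) to 4.86 (without A replicate 2) and S100a1 from 5.32 to 6.06. The 6 genes rank differently per length of transcript: in D, CPM per kilobase of exon was 225 for S100a1, 216 for Actn3, 179 for Myl6b, 75.1 for Ndrg4, 47.4 for Ano1 and 8.49 for Padi2.

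Around the peak the group means of B and E stood in 2 orders, which are described here and tested below. For S100a1 the libraries of B and E overlapped. S100a1, Ndrg4, Myl6b and Padi2 had B above E in the mean, with B at 13.1, 18.4, 28 and 25.3% and E at 11.3, 8.18, 8.07 and 8.28% of the mean of C and D, in that order of genes. Actn3 and Ano1 had E above B, with B at 4.77 and 11.1% and E at 26.8 and 32.5%. Their mean in D was 1.97 and 2.20 times that in C, while the ratio was 0.653 for Myl6b, 0.696 for Padi2, 0.884 for S100a1 and 1.04 for Ndrg4.

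The difference between E and B was tested, since the rule of choice named neither group. Actn3 was 2.45 (SE 0.52) higher in E on the log2 scale, adjusted p = 0.106 by edgeR quasi-likelihood with Benjamini-Hochberg adjustment. Ano1 was 1.52 (SE 0.51) higher, adjusted p = 0.294 (edgeR). In both genes each library of E exceeded each of B. Of all genes, 23.9% showed that order.

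Myl6b had a difference of -1.80 (SE 0.40), adjusted p = 0.116 (edgeR). Padi2 had -1.65 (SE 0.55), adjusted p = 0.292, and Ndrg4 -1.18 (SE 0.32), adjusted p = 0.197 (edgeR). In these 3 genes each library of E was below each of B, an order held by 21.8% of all genes. For S100a1 the difference was -0.22 (SE 0.35), with a 95% interval from -0.90 to 0.47 and adjusted p = 0.910 (edgeR). None of the 6 passed after adjustment, where 0.16% of genes did (23 of 14331, all lower in E). At an unadjusted p under 0.05 there were 5 of the 6, against 10.1% of all genes. The genes were chosen for a large difference among stages, which can favour this share. They also have like profiles over these libraries, so they are not 6 separate results. With the replicate number added to the fit, Actn3 passed (2.57, edgeR adjusted p = 0.0371), where 48 genes were called. DESeq2 called Actn3 (adjusted p = 0.000566) and Myl6b (adjusted p = 0.0032) and 206 genes in all, and without B replicate 2 or either library of E edgeR called 0 genes.

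In B and C the 6 genes moved together between replicates. All 6 were higher in replicate 2 of C than in replicate 1, by 0.49 (Myl6b) to 1.85 (Actn3) on the log2 scale, where 52.7% of all genes were. All 6 were also higher in replicate 2 of B, by 0.18 (S100a1) to 1.55 (Padi2), where 50.5% of all genes were. The Sertoli marker list took 1.22% of counts in C replicate 1 and 1.84% in C replicate 2, and 1.27 and 1.26% in the replicates of B. Its part in these differences was not tested. In A 3 of 6, in D 4 of 6 and in E 1 of 6 genes were higher in replicate 2.

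Over the 10 sorted libraries, which share the choice of the genes, log2 CPM of the 15 pairs correlated with Pearson's r from 0.694 to 0.977 (median 0.899). S100a1 lay closest to the mean of the other 5 (r = 0.984), followed by Ndrg4 (0.962), Padi2 (0.946), Myl6b (0.899), Ano1 (0.896) and Actn3 (0.856). Among 7816 other genes averaging a log2 CPM of 4 or more, 142 (1.82%) had r of at least 0.9 with the mean profile of the 6. The 8 most alike were Apcdd1 (r = 0.995), Ppp1r16b (0.991), Amigo2 (0.988), Mid1ip1 (0.988), Tmem200b (0.986), Osbpl7 (0.984), Rhox5 (0.982) and Cdo1 (0.980). Apcdd1, an inhibitor of Wnt signalling, had mean levels of 2.28 CPM in A, 15.1 in B, 87.4 in C, 106 in D and 10.8 in E. Rhox5, an androgen-responsive homeobox gene of Sertoli cells, had 57.9, 131, 607, 672 and 146 CPM in the same order. Osbpl7 spanned far less, from 54.3 CPM in A to 122 CPM in D.

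The nearest genes differed by shape. Those most like Actn3 were Arnt2 (r = 0.984), Rgma (0.978) and H2-K1 (0.975), and those most like Ano1 were Drd4 (0.978), Olfml3 (0.974) and Ndrg1 (0.974). Myl6b was closest to Spsb1 (0.990), Gpd1 (0.989) and Serpina3a (0.987), and Padi2 was close to Pcyt1b (0.979) and Gpt2 (0.977). For S100a1 they were Apcdd1 (0.986), Rhox5 (0.983) and Mid1ip1 (0.982), and for Ndrg4 Gpt2 (0.994), Stard5 (0.988) and Noa1 (0.987). These correlations are over 10 libraries in 5 groups and describe likeness of profile alone.

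In NANOS2 KO testes, which pass through the same days after retinoic acid without germ cells, the 6 genes stayed within narrower ranges. They were chosen for a large difference among the sorted groups, which favours a wider range there, so this is a description. In these whole testes, fewer cells of a type and less RNA per cell cannot be told apart. S100a1 ran from 14.5 to 74.0 CPM with a median of 21.0 over the 18 libraries. All but 1 library lay at or below 28.7 CPM, and the exception was day 50 replicate 1 (74.0 CPM, 221 reads, against 18.5 CPM in its partner). Padi2 ran from 38.8 to 106 CPM (median 65.8), and Ano1 from 70.2 to 171 CPM (median 120.3).

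Myl6b ran from 25.9 to 68.2 CPM (median 43.5) in the knockout, Actn3 from 37.1 to 166 CPM (median 88.3), and Ndrg4 from 7.04 to 61.5 CPM (median 24.0). Day 47 replicate 2 held the highest value of 3 genes, Ndrg4, Myl6b and Padi2, and is the highest library for 2.06% of all genes. Day 43 replicate 2 held the lowest value of Actn3, Ano1 and Padi2, and is the lowest library for 7.68% of all genes. The highest day means were 94.7 CPM ± 16.3 for Padi2 and 59.7 CPM ± 12.0 for Myl6b, both on day 47, and 147 CPM ± 26.8 for Actn3, 138 CPM ± 47.0 for Ano1 and 44.9 CPM ± 12.6 for Ndrg4, all on day 49 (SD, n = 2 each). The lowest were on day 43 for Actn3 (59.6 ± 31.9), Ano1 (78.9 ± 12.4) and Myl6b (26.4 ± 0.766), on day 42 for Padi2 (43.2 ± 6.14) and on day 50 for Ndrg4 (12.6 ± 7.86).

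**Figure D2:**
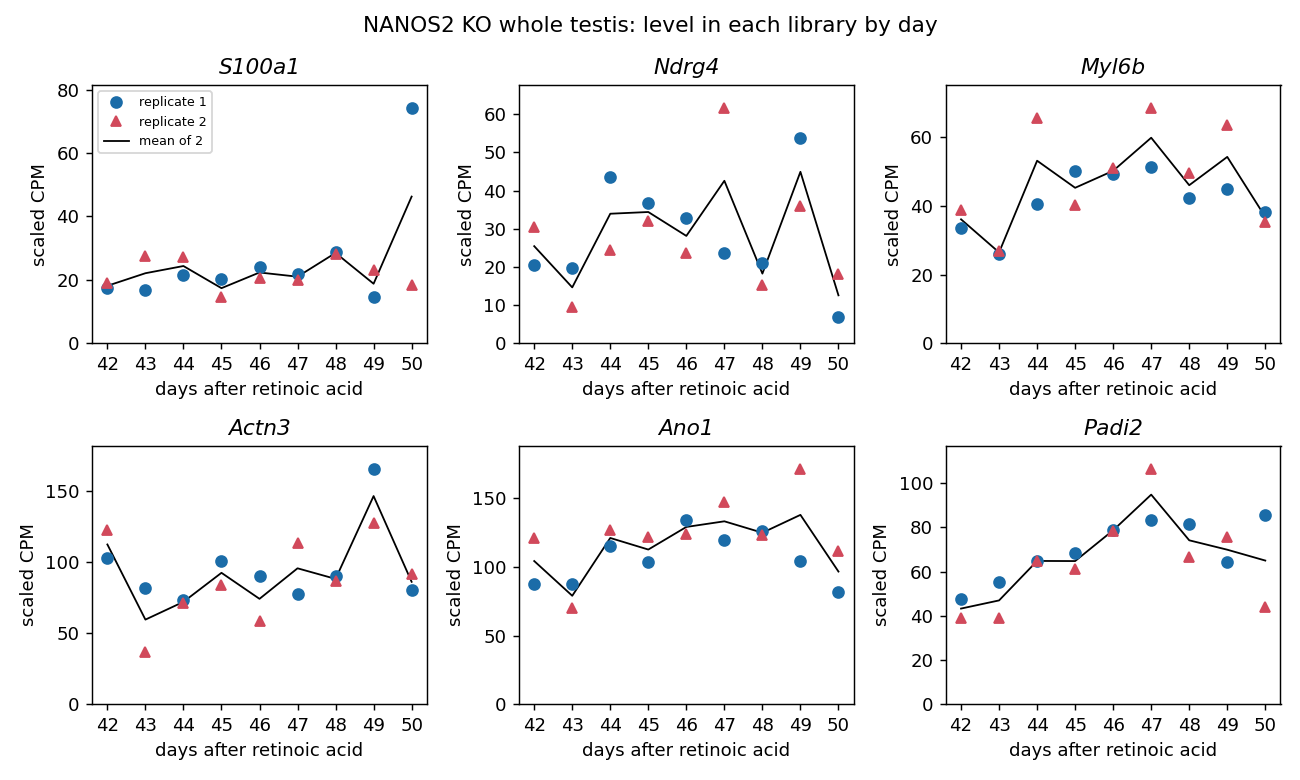
Scaled CPM (linear axes from 0) of the 6 genes in the 18 NANOS2 KO whole testes by day after retinoic acid, 2 libraries a day; points are libraries and the line joins the day means. Padi2 has its highest mean on day 47 (94.7 CPM), and 1 library of day 50 stands alone for S100a1 (74.0 CPM).

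None of the 6 differed among the 9 days after adjustment by edgeR, where 0.582% of genes did (76 of 13065). Adjusted p was 0.0965 for Myl6b, 0.108 for Ndrg4, 0.119 for Padi2, 0.122 for Actn3, 0.334 for Ano1 and 0.369 for S100a1 (edgeR F test over days). All 6 had an unadjusted p under 0.05, against 11.1% of all genes, though the 6 were chosen with earlier results of these data known. DESeq2 called Actn3, Myl6b and Padi2 (adjusted p = 0.0107, 0.0239 and 0.0272) and 215 genes in all. S100a1 passed without day 50 replicate 2, which leaves the library at 74.0 CPM alone on that day (edgeR adjusted p = 0.000912). Without day 49 replicate 2, edgeR called 879 genes, among them Ndrg4, Myl6b, Actn3 and Padi2.

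A wave with a period of 8.6 days, the length of a mouse seminiferous cycle, was fitted to the same libraries. Its amplitude was 0.41 on the log2 scale for Padi2, with the peak at day 47.0 and adjusted p = 0.111 (edgeR). Myl6b had an amplitude of 0.34 with the peak at day 46.8, Ano1 0.25 at day 47.1, Ndrg4 0.41 at day 46.4, Actn3 0.33 at day 48.7 and S100a1 0.30 at day 49.6. Adjusted p for these 5 ran from 0.330 to 0.699 (edgeR). Of all genes, edgeR called 0.0% (0 of 13065), with 1264 at an unadjusted p under 0.05, 4 of the 6 genes among them, and 57 by DESeq2. The choice of the 6 limits this count as it does that over the days. Padi2 passed with DESeq2 (adjusted p = 0.0167) and with edgeR without day 50 replicate 1 (adjusted p = 0.0125), and adjusted p of its other fits went up to 0.310.

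Between the genes, correlations in the knockout were lower than across the sorted groups. The genes were chosen for a like profile across the sorted groups, which favours high correlations there, so this is a description. No correlations of other gene pairs in the knockout are given beside them, so a loss of shared regulation was not tested. Over the 18 libraries Pearson's r of the 15 pairs ran from -0.66 (S100a1 with Ndrg4) to 0.81 (Myl6b with Ano1), with a median of 0.34, and 12 were above 0. Without day 50 replicate 1 the range was -0.46 to 0.83, the median 0.45, and 13 were above 0. These libraries share a day in pairs and a tissue of mixed cells.

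Levels of the knockout and of sorted cells were compared on a joint scale, which makes CPM differ a little from those above. Padi2 stood at 60.8 CPM ± 16.4 in the knockout (SD, n = 18), against means of 1.18 in A, 15.6 in B, 72 in C, 50.2 in D and 5.10 in E. All 18 knockout libraries lay above every library of A, B and E, as for 20.8% of the 15777 genes on this scale. Below every library of C and D lay 4 of them. Padi2 was chosen for a low level in A and high levels in C and D, which favours both orders. Ano1 stood at 105 CPM ± 22.5 (n = 18), against 6.28 in A, 28.5 in B, 158 in C, 349 in D and 83.4 in E, and 12 knockout libraries lay above every library of B and E.

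Actn3 stood at 83.6 CPM ± 25.5 in the knockout, against 16.8 in A, 26.9 in B, 376 in C, 740.3 in D and 151 in E. S100a1 stood at 22.2 CPM ± 12.2, against 3.88 in A, 25.8 in B, 207 in C, 184 in D and 22.3 in E. Myl6b was at 41.1 CPM ± 11.2, against 26.2 in A, 139.8 in B, 596 in C, 391 in D and 40.2 in E. Ndrg4 was at 25.7 CPM ± 13.1, against 18.8 in A, 79.2 in B, 416 in C, 434 in D and 35.1 in E (SD, n = 18 for each knockout mean). All 18 knockout libraries lay below every library of C and D for these 4 genes, an order held by 30.2% of all genes, against 3 for Ano1 and 4 for Padi2. The knockout mean was 0.0594 times that of D for Ndrg4, 0.105 for Myl6b, 0.113 for Actn3, 0.121 for S100a1, 0.301 for Ano1 and 1.21 for Padi2. All these genes were chosen for high levels in C and D, which favours both this order and low ratios to D. The 30.2% is a share of genes not chosen in that way, so it is no like measure for them. Order and ratios are therefore given as a description, and a loss in the knockout was not tested.

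**Figure D3:**
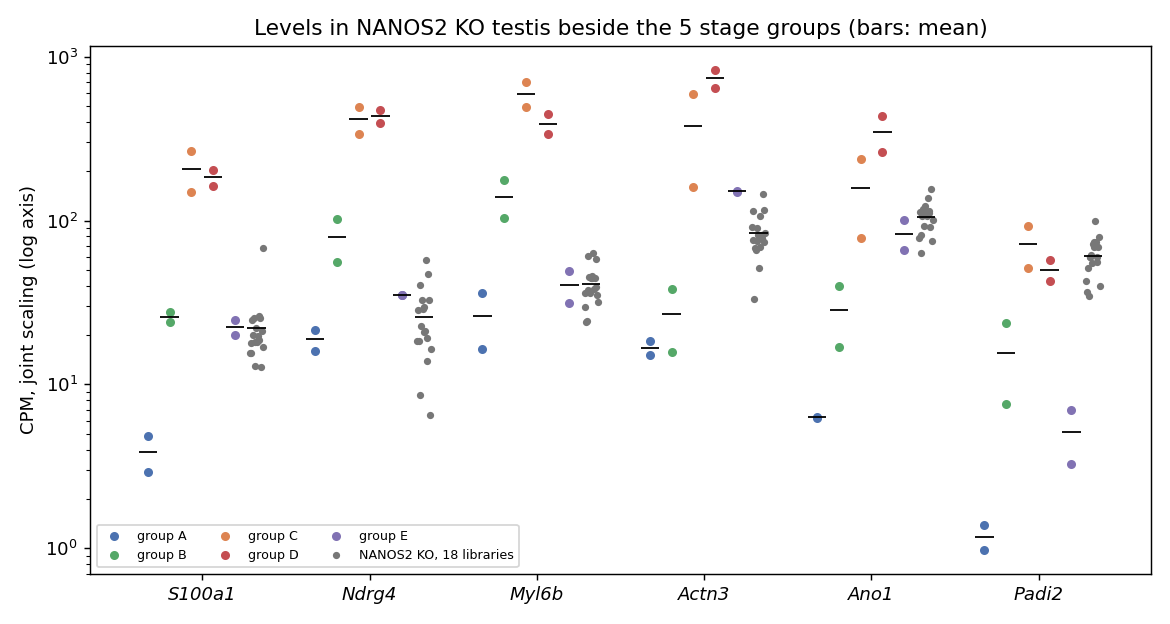
CPM on the joint scale (log axis) of the 6 genes in the sorted libraries of groups A to E, 2 each, and in the 18 NANOS2 KO libraries; points are libraries and bars the group means. Knockout points of Padi2 lie level with C and D, those of Ano1 between B and D, and those of the other 4 genes below C and D.

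The test of the knockout against the mean of B and E used groups that the rule of choice does not name. The log2 difference was 2.68 (SE 0.25, adjusted p = 6.74e-10) for Padi2 and 1.06 (SE 0.23, adjusted p = 0.000204) for Ano1, both higher in the knockout by edgeR. It was -1.15 (SE 0.21, adjusted p = 2.83e-05) for Ndrg4 and -0.91 (SE 0.17, adjusted p = 2.91e-05) for Myl6b (edgeR). Actn3 (0.33, SE 0.24, adjusted p = 0.219) and S100a1 (-0.18, SE 0.23, adjusted p = 0.475) did not pass, though Actn3 did without B replicate 2 (0.78, edgeR adjusted p = 0.0317). In this comparison 79.0% of 15777 genes were called, 35.4% higher and 43.6% lower, so a call alone sets no gene apart. The mean of B and E can hide unlike differences from each. On the joint scale the knockout mean was 0.294 times that of B and 1.02 times that of E for Myl6b. These ratios were 0.325 and 0.733 for Ndrg4, and 0.860 and 0.995 for S100a1. They were 3.10 and 0.554 for Actn3, 3.67 and 1.26 for Ano1, and 3.88 and 11.9 for Padi2. B and E were not tested singly. The sets differ in tissue, strain and genotype, whose parts cannot be told apart. Leydig cell genes, for example, made up 0.269 to 0.704% of a knockout library and 0.00140 to 0.00507% of a sorted one, with Insl3 and Lhcgr at 0 counts in the latter, and Hsd3b1 at 81, Hsd17b3 at 96 and Star at 770 over its 10 libraries. The mean of Hsd3b1 was 0.301 CPM in A, 8.70 in C and 3.25 in D, and it was called higher in C and D, through whose libraries it passed the filter.

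The relatives of the 6 genes were examined for the same contrast, C and D against A. Of 46 relatives in the S100, NDRG, myosin light chain, alpha-actinin, anoctamin and peptidylarginine deiminase families, 26 were tested, and 4 were called higher and 1 lower by edgeR, against 4.97 and 5.65% of all genes (10.6% in either direction). Their median was -0.14 on the log2 scale, against -0.02 over all genes. Most relatives did not pass. Among those called higher, S100b and Myl1 passed the filter on low counts only through the libraries of C and D, where they are high, so their calls are given for the count alone. Ndrg1 was called in each of the 16 alternatives run.

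S100b, like S100a1 a calcium-binding S100 protein and its partner in heterodimers, had mean levels of 0.102 CPM in A (1 read), 0.965 in B, 13.9 in C, 21.0 in D and 1.91 in E. The pooled ratio of C and D to A was 175 and rests on the 1 read in A. Its 95% interval, from 31.1 to 6940, covers counting error alone and leaves out the spread of replicates. S100a13 had 1.98 CPM ± 1.07 in A, 7.06 ± 1.05 in C and 7.99 ± 1.39 in D (SD, n = 2 each), a log2 difference of 1.91 (SE 0.46, edgeR adjusted p = 0.0198). It lost its call without A replicate 2 (1.45, adjusted p = 0.129) or without D replicate 2. S100a10 and S100a11, the most abundant others, had differences of -0.75 (SE 0.28) and -0.22 (SE 0.47) and were not called.

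Ndrg1, a stress-responsive relative of Ndrg4, had means of 19 CPM in A, 64.0 in B, 222 in C, 360.0 in D and 78.8 in E, a difference of 3.89 (SE 0.43, edgeR adjusted p = 0.000298). Ndrg3 ran the other way without passing (-0.51, SE 0.23). Ndrg2 had 65 reads over the sorted libraries, too few to test, and 199 CPM in the knockout. Ndrg1 was thus the 1 called higher of 2 relatives tested, as Ndrg4 itself was chosen for high levels in C and D.

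Myl1, a light chain of fast skeletal muscle, had 0 reads in A and 82 in C and D, at least 21.6-fold higher (floor of 3 counts over group A), and its mean in D was 8.49 CPM. Myl6, the ubiquitous counterpart of Myl6b, stayed between 95.1 and 105 CPM in the 5 group means (log2 difference 0.11, SE 0.23, adjusted p = 0.810). Myl9 (-0.43, SE 0.23), Myl12a (-0.03, SE 0.22) and Myl12b (0.39, SE 0.23), light chains of non-muscle and smooth muscle myosin, were not called.

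Among alpha-actinins, Actn4, the most abundant other form, had a difference of -0.23 (SE 0.24), Actn1 of 0.44 (SE 0.53) and Actn2 of 0.81 (SE 0.39), and none was called. Ano6, a calcium-activated lipid scramblase, was the relative called lower, with 71.5 CPM ± 32.6 in A, 23.5 ± 12.3 in C and 33.9 ± 4.76 in D (SD, n = 2 each; log2 difference -1.34, SE 0.34, edgeR adjusted p = 0.0256). Its call was lost without A replicate 1 (-0.78, adjusted p = 0.239), C replicate 1, D replicate 1 or D replicate 2. The deiminases Padi3, Padi4 and Padi6 stayed at or below 6.10 CPM in every group mean and were not called. In the knockout, no relative was called over the days or by the wave.

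**Figure D4:**
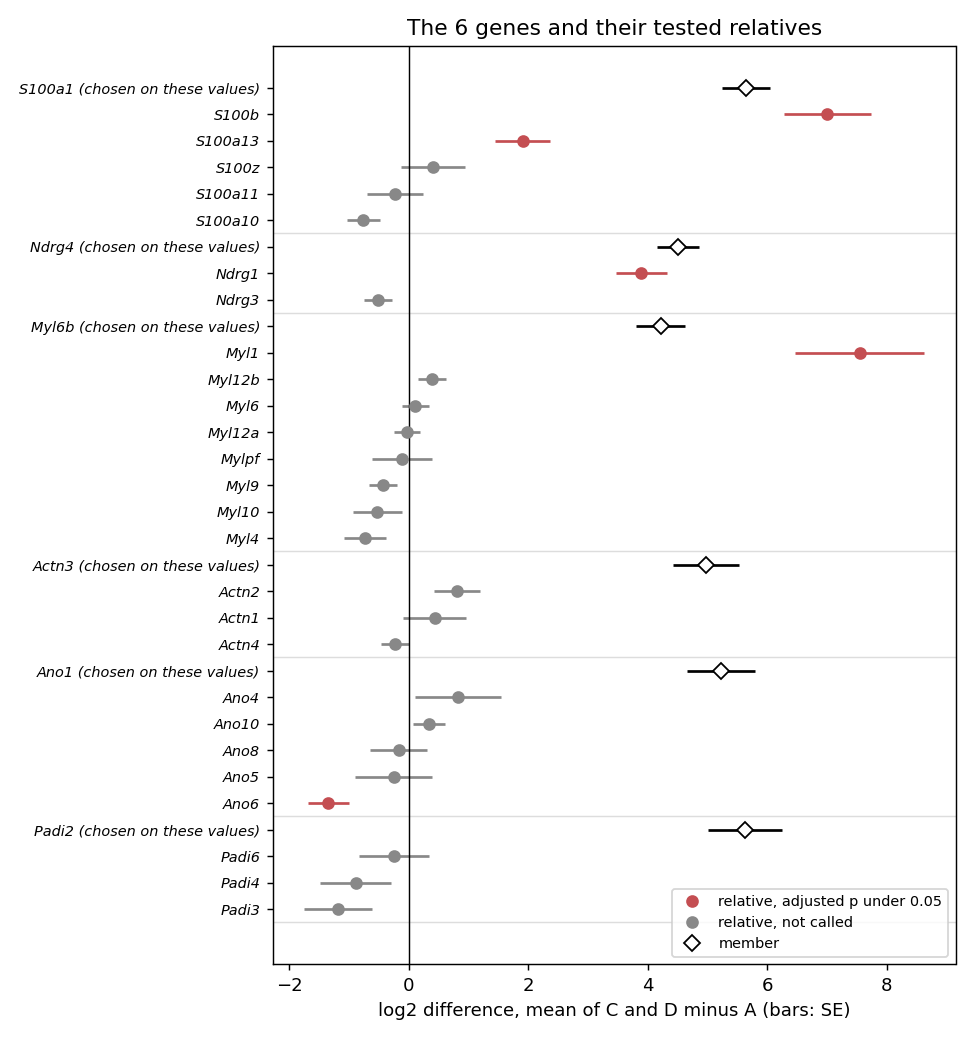
Log2 difference of the mean of C and D minus A with its SE for the 6 genes (open diamonds, chosen on these values) and their 26 tested relatives (points; coloured where adjusted p was under 0.05). S100b, S100a13, Ndrg1 and Myl1 lie to the right as called, Ano6 to the left, and the other relatives lie between -1.18 (Padi3) and 0.83 (Ano4). S100b and Myl1 passed the filter only through the libraries of C and D.

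Lists of genes that act with these proteins were mixed. Of 30 tested genes of actomyosin and actin cross-linking, 2 were called higher in C and D than in A and 3 lower (median -0.21), against 4.97 and 5.65% of all genes. Mylk, the kinase of myosin light chains (0.95, SE 0.27), and Tpm1, a tropomyosin (1.00, SE 0.30), were higher, and Espn (-1.20, SE 0.21), Pls3 (-1.77, SE 0.32) and Lima1 (-1.53, SE 0.34), which bundle or bind actin filaments, were lower. Adjusted p of these 5 ran from 0.00328 to 0.0477 (edgeR). Espn and Pls3 were called in all 16 alternatives, while Tpm1 lost its call in 11 and Mylk in 6 of them (adjusted p up to 0.195 and 0.202, without A replicate 2), and Lima1 without A replicate 1 or D replicate 2.

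Of 23 tested genes of calcium stores, pumps and sensors, 1 was higher, the calmodulin gene Calm3 (1.3, SE 0.25, edgeR adjusted p = 0.00634), and 1 lower, the calcium release channel gene Itpr2 (-1.43, SE 0.31, edgeR adjusted p = 0.0106; -0.89 and not called without A replicate 1). The list's median was 0.11. Of 20 tested chloride channels and transporters, 3 were higher and 3 lower (median 0.25). The same shares of all genes, 4.97 and 5.65%, and a median of -0.02 stand beside these lists. Clic6 was the largest rise, from 9.18 CPM ± 6.37 in A to 112 CPM ± 5.92 in D (SD, n = 2 each; log2 difference 3.11, SE 0.50, edgeR adjusted p = 0.00213). Clic4 (0.93, SE 0.22) and Ttyh1 (0.80, SE 0.22) were also higher, and Clic1 (-0.90, SE 0.20), Lrrc8b (-1.0, SE 0.24) and Slc12a7 (-1.09, SE 0.32) lower. Of the 16 alternatives, Ttyh1 and Slc12a7 lost their calls in 9 each (adjusted p up to 0.181 and 0.302, without A replicate 2). Clic4 lost its call without either library of A, Lrrc8b without A replicate 2 or D replicate 1, Clic1 without A replicate 1, and Clic6 kept its call in all 16.

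Since Actn3, Myl6b and Myl1 are known from muscle, muscle markers were read beside them. A list of 20 skeletal and cardiac muscle genes took 0.00753 to 0.00963% of counts in A, 0.00718 to 0.00874% in C and 0.00789 to 0.00985% in D. Of its 8 tested genes 1 was called higher in C and D, Ttn (2.23, edgeR adjusted p = 0.0223), against 4.97% of all genes. Over the 10 sorted libraries the list ran from 0 reads for Tnni2, 1 for Tnnt3, 4 for Actc1 and 29 for Ckm to 228 for Ttn, 258 for Actn2, 347 for Myh6, 702 for Myh1 and 1224 for Ryr1, against 7750 for Actn3.

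The 6 genes lie on 6 chromosomes, as protein-coding genes of the GRCm38 annotation: S100a1 at chr3:90511034-90514392, Padi2 at chr4:140906344-140952586, Ano1 at chr7:144588549-144751974, Ndrg4 at chr8:95676980-95715119, Myl6b at chr10:128494157-128498685 and Actn3 at chr19:4861216-4877909. Of the 24 nearest genes with a row in the tables, 2 on each side, 16 were tested for C and D against A, with 3 called higher and 1 lower (median 0.22), against 4.97 and 5.65% of all genes (median -0.02). S100a13, divergent from S100a1 at a distance of 42 bases, is described above. Zdhhc24, a palmitoyltransferase gene 758 bases from Actn3, had 16 CPM ± 0.178 in A and 55.5 ± 3.41 in D (SD, n = 2 each; log2 difference 1.58, SE 0.32, edgeR adjusted p = 0.00732) and was called in all 16 alternatives. Setd6, 761 bases beyond the end of Ndrg4 and on its strand, differed by 1.90 (SE 0.54, edgeR adjusted p = 0.0405) and lost its call in 9 alternatives, among them those without either library of A, D or E or without C replicate 2 (adjusted p up to 0.15). Without D replicate 2, Zdhhc24 was the 1 neighbour called higher.

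Next to Myl6b, Myl6 starts 11 bases beyond its end and did not move with it, as given above, and Smarcc2 was lower (-0.72, SE 0.20, edgeR adjusted p = 0.0367), a call lost in 8 alternatives, without each library but A replicate 1 and B replicate 1 (adjusted p up to 0.199). Ctsf, 297 bases from Actn3, had a difference of 0.67 (SE 0.26) and was not called. Fadd was the 1 tested neighbour of Ano1 (-0.29, SE 0.24), and Padi2 had none with enough reads. Without strand information in the counting, reads of overlapping genes cannot be told apart: Gm13031, on the opposite strand of Padi2, had 10 reads in the sorted libraries and 38 in the knockout, and Gm44930, on the opposite strand of Ano1, was not analysed here.

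**Figure D5:**
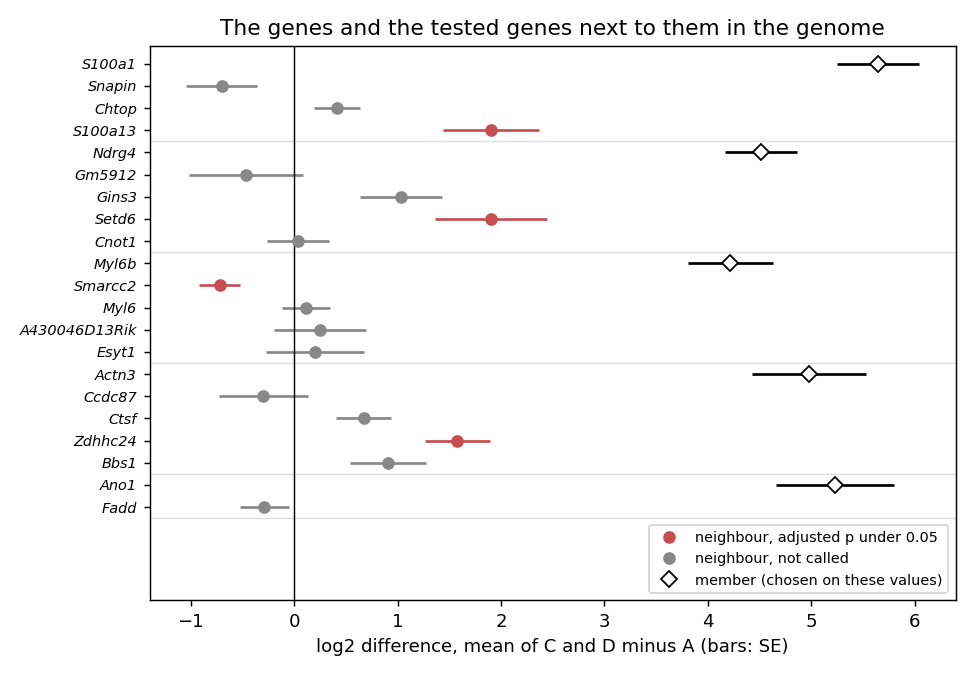
Log2 difference of the mean of C and D minus A with its SE for 5 of the 6 genes (open diamonds, chosen on these values) and for the 16 tested genes next to them in the genome (points; coloured where adjusted p was under 0.05). Each gene lies above 4, while its neighbours lie between -0.72 (Smarcc2) and 1.91 (S100a13).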

How the data were processed

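Per the labels' protocols, polyadenylated RNA of 28 samples was sequenced on the Ion Proton platform: 10 libraries of sorted Sertoli cells in 5 stage groups and 18 of NANOS2 KO whole testes over 9 days. Per the submitters' processing notes, Bowtie, TopHat and Cufflinks were used against mm10; their versions, the annotation, and how reads were counted and whether by strand, are not given in the sources used. The authors deposited raw counts for 43280 gene rows, and tables named FPKM that hold CPM, since each deposited CPM matches its count divided by the library total. The labels call the knockout samples Sertoli cells but also whole testis, and the extraction protocol speaks of sorted germ cells. Of 2 knockout count columns with the same day 42 header, each took its replicate number from the CPM column with equal values.

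Groups followed the labels. Genes passing filterByExpr were tested by quasi-likelihood in edgeR 4.0.16 (R 4.3.3) on TMM-scaled counts, over 14331 genes (sorted), 13065 (knockout) and 15777 (joint fit), with Benjamini-Hochberg adjustment over all genes and calls at an adjusted p under 0.05. Log2 CPM used a prior count of 2. The contrasts were C and D against A, E against B, the 9 days by F test, a wave of 8.6 days, and the knockout against the mean of B and E. Within sets, 3 counts equal 0.568 to 1.58 CPM (sorted) and 0.686 to 2.24 CPM (knockout), counting error only; PCR duplicates could not be told from separate molecules. Exon lengths came from GENCODE M21. The fits were tested on simulated data.

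The 6 genes, the lists and the contrasts were chosen with earlier results of these data known. Any tested relative may be named, as may called list members (up to 3 in each direction by smallest p), the 2 nearest genes on each side, and the 3 genes most like each member and 8 most like their mean. A gene that this rule takes is not reported here. Each fit was repeated with RLE scaling, without the filter, with DESeq2 1.42.0, with limma 3.58.1 with trend on log2(CPM + 1) and log2(CPM + 0.1), with the replicate number as a block, with periods of 8 and 9 days, with scaling by Sertoli genes, and without each library in turn; leaving out day 50 replicate 1 from the knockout correlations was added after seeing the data. Replicates differed by more than counting noise (chi-square per degree of freedom 1.82 to 33.1), so no library was counted as a duplicate. Names turned into dates (27 symbols) are not named.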

Additional observations from a re-analysis of the deposited data

How the results depend on the processing

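Across 149 single values and 2644 refits, 2486 kept their side of the threshold or, with no test of their own, stayed near the main value. Of the rest, 66 lost a call, 61 gained one, 31 values or counts with no test of their own moved, and 0 called values reversed. Of 92 related or neighbouring genes not called, 8 gained a call in at least 1 refit, and 37 changed sign while not called. For C and D against A (1522 genes), no filter gave 2315, DESeq2 1822 and left-out libraries 967 (without D replicate 2) to 1520. The called relatives numbered 3 to 4 higher and 0 to 1 lower, and the called neighbours 1 to 3 higher and 0 to 1 lower, with a library left out. For E against B (23), no filter gave 498, DESeq2 206, and left-out libraries 0 to 69. For the days (76), no filter gave 968, DESeq2 215, limma with trend 40 on log2(CPM + 1) and 31 on log2(CPM + 0.1), and left-out libraries 18 (without day 42 replicate 1) to 879 (without day 49 replicate 2). For the wave (0), no filter gave 359, DESeq2 57, a period of 9 days 3, and left-out libraries 0 to 9. For the knockout against B and E (12460), scaling by Sertoli genes gave 12340, and left-out libraries gave 11716 to 12616. The cause of these shifts was not tested.

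With the replicate number as a block, the counts were 1987 for C and D against A, 48 for E against B, 64 for the days, 0 for the wave and 12464 for the knockout against B and E, and Actn3 passed in E against B (2.57, adjusted p = 0.0371, edgeR; its alternatives ran from 3.0e-10 to 0.829). The labels do not say that the numbers are a pairing. Deviations of same-numbered libraries correlated from -0.178 to 0.576 over sorted groups (median 0.302, 6 of 10 above 0.1), so most of those pairs were alike. Over days they correlated from -0.381 to 0.213 (median -0.013, 2 of 36 above 0.1). Whether same-numbered libraries share a batch was not tested. With no filter, 5 of the 6 genes passed in E against B, all 6 over the days and 5 for the wave. A leaving-out that left 1 library in a group assumed that it varies like the others. Padi2 with 10 reads and S100a1 with 33 reads in A set the precision of their folds.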
